A study of Mus musculus with 12 samples.

Results

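Messenger RNA of 43 mitosis genes was followed in cultured mouse Th17 cells given an inhibitor of IRE1alpha, an inhibitor of STAT3, or both. The genes are named genes of the G2 and M phases, chosen by symbol among 55401 genes of the count table, and all 43 were found by their Ensembl identifier and passed the filter on low counts. They fall into 7 roles: CDK1 with its cyclins and activators (9 genes), mitotic kinases (6), the spindle checkpoint with the anaphase-promoting complex and its substrates (6), the chromosomal passenger complex with kinetochore and centromere proteins (8), spindle kinesins and microtubule proteins (6), midzone and cytokinesis proteins (6), and chromosome structure and proliferation (2). All cells were wild-type T cells from lymph nodes that had been differentiated from naive T cells. The 4 groups had 3 libraries each and are called None (no inhibitor), Kira8, Stattic and Kira8+Stattic, with 4 h of treatment in the last 3. Kira8 blocks the kinase of IRE1alpha and thereby its RNase, which splices Xbp1 mRNA, and Stattic is a small molecule that targets the SH2 domain of STAT3. The origin of the replicates and a solvent in None are not stated in the labels, so a p-value here speaks of the scatter among these libraries, part of which may be technical.

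Entry into mitosis is driven by CDK1 bound to cyclin B, which CDC25 phosphatases activate and which PLK1 and the Aurora kinases act beside. The spindle checkpoint holds CDC20 away from the anaphase-promoting complex until all kinetochores are attached, and the complex then destroys cyclin B and securin so that chromatids part and the cell divides. Transcripts of these genes peak late in the cell cycle under the MuvB complex with B-Myb and FOXM1, and in resting cells the DREAM complex, which holds the same MuvB core with E2F4, represses many of them through a promoter element called the CHR, often beside CCAAT boxes bound by NF-Y. Activated T cells, Th17 cells included, divide rapidly, and these transcripts are widely used as a measure of their cycling.

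The promoters were read for these elements because they are what the genes are known to share. RefSeq promoters (GRCm38.p6, the same assembly as mm10, 250 bases before to 50 after the start) were on hand for 36 of the 43 genes; Foxm1, Cdc25c, Ccna2, Kif20a, Tpx2, Aurkb and Incenp were the other 7. The CHR hexamer TTTGAA, on either strand, was found in 25 of these 36 genes (69.4%), against 20.2% of all 27025 genes with such a promoter. The pentamer CCAAT, on either strand, was found in 28 of the 36 (77.8%), against 41.1% of all genes. Both were found in 22 (61.1%), against 7.97%. Matches that overlap were counted separately, and a match is letters in a window, not a bound site. Below are the 250 bases before the start of 5 genes whose results are described here. They were chosen for holding both elements, with 1 or 2 CHR matches and 2 to 6 CCAAT matches each, and so are not typical of the 36. Capitals mark TTTGAA and CCAAT on either strand.
Cdk1, chr10:69352913-69353162, minus strand: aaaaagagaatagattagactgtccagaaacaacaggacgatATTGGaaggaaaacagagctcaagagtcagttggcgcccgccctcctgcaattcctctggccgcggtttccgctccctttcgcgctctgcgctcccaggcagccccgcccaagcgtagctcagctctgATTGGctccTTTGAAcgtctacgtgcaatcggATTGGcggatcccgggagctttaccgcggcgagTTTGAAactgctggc
Cdc20, chr4:118437344-118437593, minus strand: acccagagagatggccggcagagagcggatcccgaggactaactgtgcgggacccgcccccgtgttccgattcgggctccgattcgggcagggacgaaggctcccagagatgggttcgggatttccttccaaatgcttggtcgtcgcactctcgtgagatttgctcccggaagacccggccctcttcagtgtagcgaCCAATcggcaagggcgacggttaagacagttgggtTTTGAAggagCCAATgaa
Ube2c, chr2:164769679-164769928, plus strand: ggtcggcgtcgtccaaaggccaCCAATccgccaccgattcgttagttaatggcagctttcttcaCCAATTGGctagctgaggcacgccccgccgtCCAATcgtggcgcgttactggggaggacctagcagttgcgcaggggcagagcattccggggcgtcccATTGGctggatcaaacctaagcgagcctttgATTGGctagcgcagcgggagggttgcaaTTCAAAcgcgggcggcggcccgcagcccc
Top2a, chr11:99024190-99024439, minus strand: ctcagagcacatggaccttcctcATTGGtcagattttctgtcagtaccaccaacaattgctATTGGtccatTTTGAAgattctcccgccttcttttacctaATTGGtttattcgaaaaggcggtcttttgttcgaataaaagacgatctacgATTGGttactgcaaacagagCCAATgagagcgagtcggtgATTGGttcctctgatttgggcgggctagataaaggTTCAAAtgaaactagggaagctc
Mki67, chr7:135716380-135716629, minus strand: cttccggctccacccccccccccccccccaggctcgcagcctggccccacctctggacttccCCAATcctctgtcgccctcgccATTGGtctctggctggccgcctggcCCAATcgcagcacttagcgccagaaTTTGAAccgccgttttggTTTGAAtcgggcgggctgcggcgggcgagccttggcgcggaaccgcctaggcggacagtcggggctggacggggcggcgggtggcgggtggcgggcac
In Cdk1, Cdc20, Ube2c and Top2a a CHR match lies within 30 bases of the start, whereas both matches of Mki67 lie farther upstream. The 36 genes had 39 promoters in the table, since Ect2, Prc1 and Bub3 have more than 1 that overlap, and a match at the same genome position was counted once. Of 32 such CHR matches 24 had their first base between 60 bases before and 40 bases after a start of their gene, and of 67 CCAAT matches 32 did. Matches in this window were not counted over all genes. The median change against None under Kira8 was -0.22 (log2) for the 25 genes with a CHR match and -0.21 for the 11 without. Under Stattic these medians were -0.34 and -0.05, and under Kira8+Stattic -0.11 and 0.19, so genes without a match sat higher under those treatments, as a description with no test.

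**Figure D1:**
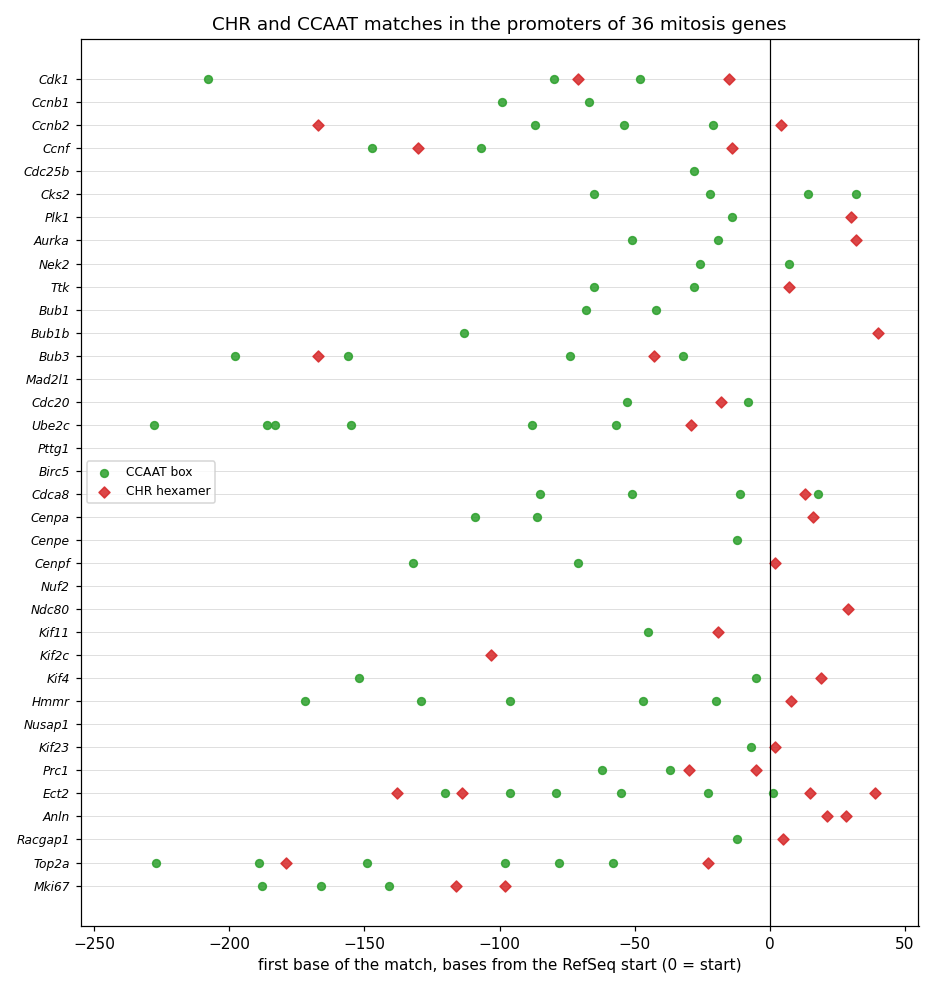
Position of each CHR hexamer (diamonds) and CCAAT box (circles) in the promoters of 36 mitosis genes, as the first base of the match in bases from the RefSeq start at 0. Matches in the overlapping promoters of Ect2, Prc1 and Bub3 are drawn from each start. Of 32 distinct CHR matches 24 lie from 60 bases before to 40 after the start, against 32 of 67 CCAAT matches.

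Total counts were 51.7 to 85.9 M (megacounts) in 10 libraries, and the 43 genes held 0.303 to 0.46% of them. Kira8 replicate 2 (19.8 M) and Stattic replicate 2 (9.28 M) stood apart from all others. There the genes held 0.0273% and 0.087% of counts, and mitochondrial genes held 61.5% and 10.7%, against 3.38 to 5.22% elsewhere. No mitosis gene was at 0 in the 10 libraries, where the lowest count of any was 431. In Kira8 replicate 2 there were 5 at 0 (Ccnb1, Ccnb2, Cdc25b, Plk1 and Aurkb), and in Stattic replicate 2 there were 10 (Cdk1, Ccnb2, Cdc25b, Plk1, Aurka, Aurkb, Cdc20, Ube2c, Nuf2 and Ndc80). A count of 0 there allows up to 0.151 and 0.323 CPM (counts per megacount). The results below come from the other 10 libraries, so that Kira8 and Stattic have n = 2 and None and Kira8+Stattic n = 3, and values with all 12 follow at the end. All 10 Th17 and T cell markers were above 0 in each of the 10 libraries, with summed levels of 1500 to 3500 CPM in None, 1330 to 1400 in Kira8, 1620 to 1790 in Stattic and 1640 to 1740 in Kira8+Stattic. Much of the spread in None came from Il17a (514, 1390 and 247 CPM) and Il17f (449, 979 and 218). The sums hide moves of single markers in opposite directions, which are given below.

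**Figure D2:**
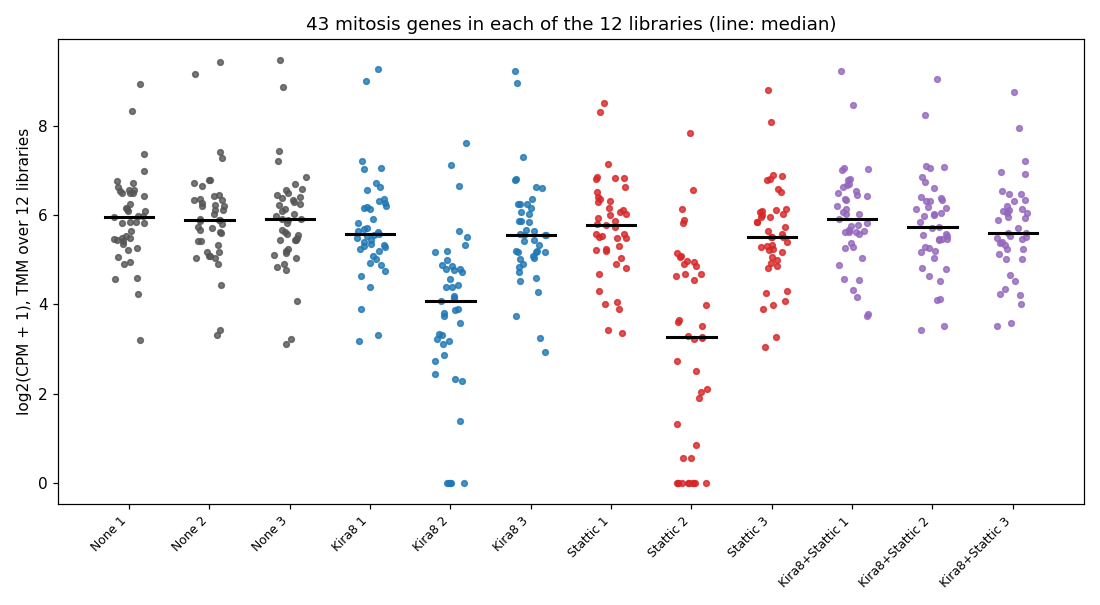
Level of the 43 mitosis genes in each of the 12 libraries, as log2(CPM + 1) scaled by TMM over all 12; each point is a gene and each line the median. Kira8 replicate 2 and Stattic replicate 2, with medians of 16.0 and 8.71 CPM and points at 0, sit below the other libraries, whose medians run from 44.9 to 61.4 CPM.

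Levels are given as CPM scaled by TMM over the 10 libraries. Together the 43 genes summed to 3798, 4453 and 4259 CPM in None, 3912 and 3681 CPM in Kira8, 3503 and 3218 CPM in Stattic, and 4134, 3707 and 3356 CPM in Kira8+Stattic. The sums of the groups overlap except that both Stattic libraries lie below every None and every Kira8 library. Between genes, levels can be compared only per kb of annotated exon. On that scale Top2a, the topoisomerase that untangles chromosomes, had the highest mean in None at 80.3 ± 16.7 CPM per kb (SD, n = 3). Its spread met that of Cks2. Cks2 (60.5 ± 10.6 CPM per kb, SD, n = 3), Cdc20 (52.0 ± 2.96), Mki67 (51.9 ± 15) and Ccna2 (47.4 ± 1.71) came next, and these neighbours did not differ beyond their spread. At the other end stood Ttk (4.19 ± 0.589), Cenpf (4.12 ± 1.21), Anln (3.27 ± 0.432) and Cdc25c (1.98 ± 0.282).

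Under each treatment some of these genes were lower than in None, fewer were higher, and most were not called. Calls are at an adjusted p under 0.05, computed by edgeR's quasi-likelihood test on 21239 genes. Against None, 9 of the 43 genes were lower and 2 higher under Kira8, while 9.59% of all genes tested were called lower and 9.7% higher. Under Stattic 15 were lower and 4 higher, while 18.9% of all genes were called lower and 20.1% higher. Under Kira8+Stattic 13 were lower and 6 higher, while 20.0% of all genes were called lower and 20.8% higher. The lower genes made up 20.9%, 34.9% and 30.2% of the 43, each above the share of all genes, and the higher ones 4.65%, 9.3% and 14%, each below it. The median change of the 43 was -0.22, -0.32 and -0.06 (log2) under Kira8, Stattic and Kira8+Stattic, against 0.00, 0.08 and 0.09 over all genes. These shares depend on the genes compared with. Keeping only genes over 1 CPM in 3 libraries, 11, 14 and 12 of the 43 were lower in turn. Of all 14268 genes so kept, 2245, 3805 and 4053 were lower. There the Kira8+Stattic share of lower genes was near that of all genes, with medians of -0.01 and -0.0. The 3 comparisons share the None libraries. In RNA from whole cultures, fewer cells in mitosis and less of a transcript per cell cannot be told apart.

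These counts depended on single libraries. Without Kira8 replicate 1 edgeR called 1 mitosis gene under Kira8 in place of 11, Kif20a. Without Kira8 replicate 3 edgeR called 0, while 10 had an unadjusted p under 0.05. With both replicates 18 had an unadjusted p under 0.05 by edgeR, beside 6789 of all 21239 genes tested. DESeq2 called 15, 2 higher and 13 lower, beside 2576 higher and 2724 lower of 21239 genes. Calls over all genes fell too when 1 Kira8 replicate was left out. For Stattic 12 genes were called without None replicate 2 or without Stattic replicate 3, and for Kira8+Stattic 12 without None replicate 2. Whichever of the 10 libraries was left out, Cdk1, Ccnb1, Ccnf, Plk1, Aurkb, Ttk, Kif2c, Top2a and Ndc80 were called under Stattic and under Kira8+Stattic, and Nuf2 and Cenpa under Kira8+Stattic. Each of the 11 Kira8 calls, 10 of the 19 under Stattic and 8 of the 19 under Kira8+Stattic were lost in at least 1 of these fits. Scaling by library size alone, which moves the median change of all genes under Stattic from 0.08 to -0.08, gave 1 gene higher and 17 lower under Stattic and 3 higher and 15 lower under Kira8+Stattic.

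The Th17 and T cell markers and genes listed as markers of other cell types moved with the treatments. Of the 10 Th17 and T cell markers 3, 5 and 5 were called lower and 1, 3 and 3 higher under Kira8, Stattic and Kira8+Stattic. Over all genes 9.59%, 18.9% and 20.0% were called lower and 9.7%, 20.1% and 20.8% higher. Ccr6 was at 33.2, 122 and 54.3 CPM in None and 10.5 and 13.2 in Stattic. Rora was at 37.7, 122 and 49.9 in None and 259 and 365 in Stattic. The 14 B cell markers summed to 171 to 192 CPM in None, 65.0 to 78.3 in Kira8, 30.9 to 47.2 in Stattic and 35.3 to 68.0 in Kira8+Stattic. Of them 6, 10 and 8 were called lower in turn (42.9%, 71.4% and 57.1%) and 0 higher. Fcrla was at 0 in 1 Stattic library and Cr2 in 1 Kira8+Stattic library. The 14 CD8 T and NK cell markers summed to 1270 to 2170 CPM in None, 222 to 256 in Kira8, 666 to 847 in Stattic and 262 to 406 in Kira8+Stattic. Of the 13 that were tested, 9, 4 and 8 were called lower (69.2%, 30.8% and 61.5%) and 0, 2 and 1 higher (0.0%, 15.4% and 7.69%). Most of the sum in None was Gzmb, at 964, 1370 and 744 CPM there and 84.1 and 85.6 in Kira8. Cd8a was at 81.3, 150 and 80.2 CPM in None and 19.4 and 13.1 in Kira8. Such a sum does not tell a change in the number of these cells from a change in the transcripts. Gzmk was at 0 in 1 library of each treated group, and Ncr1 was at 0 in 9 of the 10 libraries. The part of these markers in the changes of the mitosis genes was not tested.

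**Figure D3:**
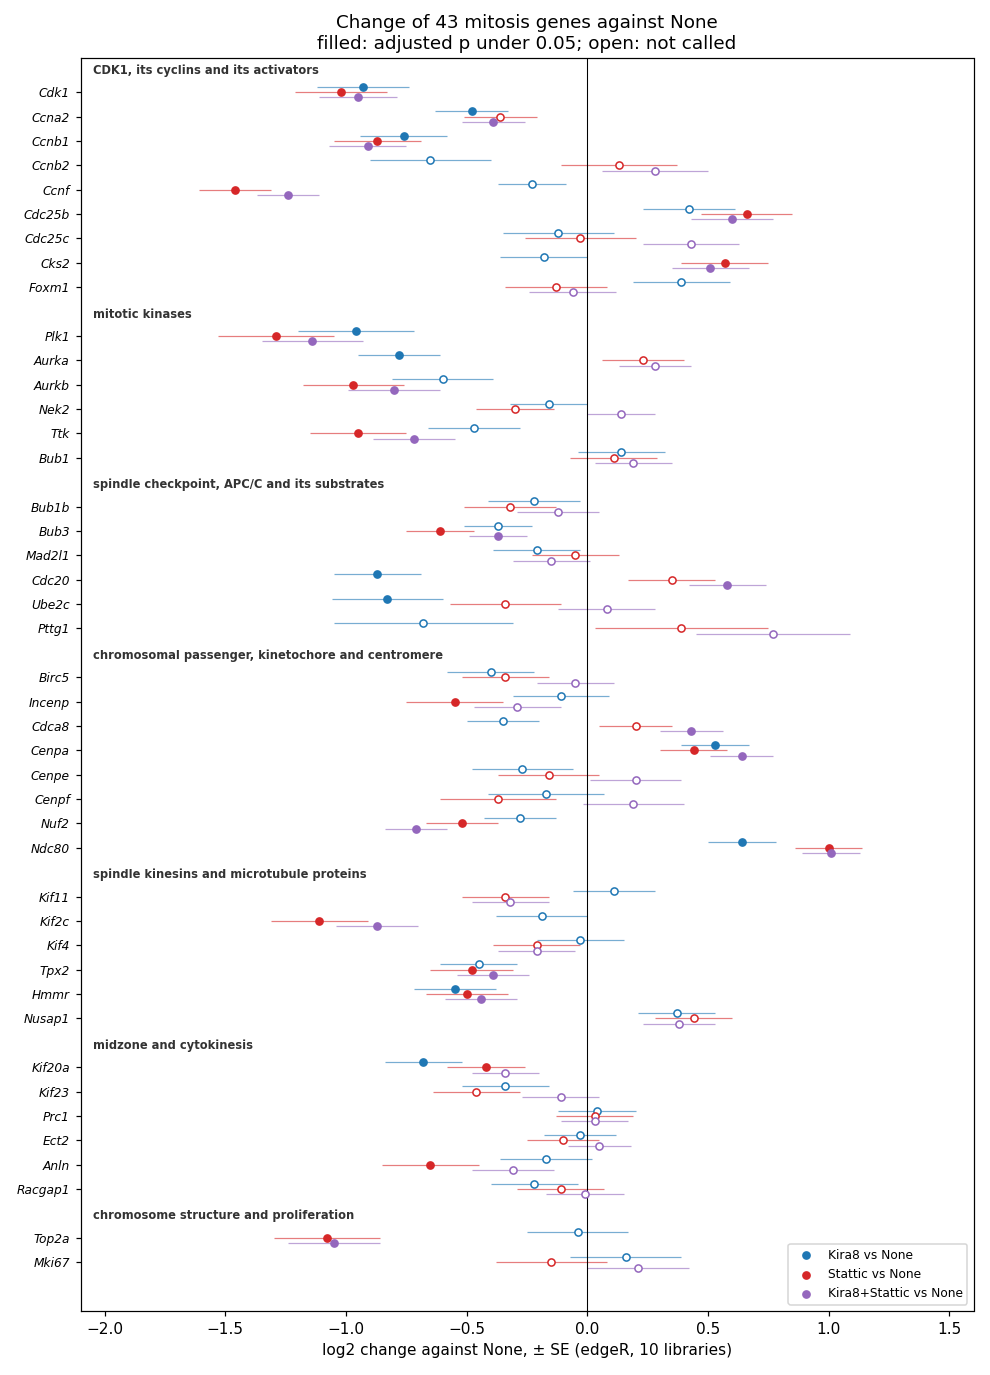
Log2 change against None of the 43 mitosis genes, by role, for Kira8 (blue), Stattic (red) and Kira8+Stattic (purple); bars are the SE and filled points passed the test. Cdk1, Ccnb1 and Plk1 lie left of 0 with filled points in all 3 colours and Ndc80 and Cenpa right of it, while Ccnf, Kif2c and Top2a are filled in the 2 treatments with Stattic.

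The counts by role that follow are small. Over all genes 9.59%, 18.9% and 20.0% were called lower under Kira8, Stattic and Kira8+Stattic, and 9.7%, 20.1% and 20.8% higher. Of the 9 genes of CDK1, its cyclins and its activators, 3 were lower under Kira8 and 6 did not pass. Stattic lowered 3 and raised 2, and Kira8+Stattic lowered 4 and raised 2. Cdk1, the kinase that starts mitosis (chr10:69335146-69352938, mm10), was at 99.3, 88.4 and 85.9 CPM in None, 47.3 and 48.5 in Kira8, 52.5 and 37.2 in Stattic, and 55.7, 43.5 and 42.7 in Kira8+Stattic. Every treated library lay below every None library. The changes against None were -0.93 ± 0.19 (log2, SE; adjusted p = 0.0047) under Kira8, -1.02 ± 0.19 (adjusted p = 0.00112) under Stattic and -0.95 ± 0.16 (adjusted p = 0.000644) under Kira8+Stattic. Without Kira8 replicate 1 or 3 the adjusted p of the Kira8 change was 0.0576 or 0.0533.

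Ccnb1, cyclin B1, stood at 109, 127 and 107 CPM in None, 68.6 and 66.2 in Kira8, 73.6 and 51.8 in Stattic, and 68.4, 59.1 and 55 in Kira8+Stattic. It was lower in all 7 treated libraries, by -0.76 ± 0.18 (adjusted p = 0.0112), -0.87 ± 0.18 (adjusted p = 0.00261) and -0.91 ± 0.16 (adjusted p = 0.000687) in the same order. Dropping Kira8 replicate 1 or 3 ended its Kira8 call (adjusted p = 0.0865 or 0.115). Ccnb2, the second cyclin B, did not follow: its changes were -0.65, 0.13 and 0.28, and none passed. Ccna2, cyclin A2 of S and G2 phase, was lower under Kira8 (-0.48 ± 0.15, adjusted p = 0.0436) and Kira8+Stattic (-0.39 ± 0.13, adjusted p = 0.0361), with -0.36 and an adjusted p of 0.0824 under Stattic. Both calls ended with no filter and without any one of None replicates 2 and 3, Kira8 replicates 1 and 3 or Kira8+Stattic replicates 2 and 3 (adjusted p from 0.0592 to 0.378).

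Ccnf, cyclin F, which serves a ubiquitin ligase in G2 (chr17:24222198-24251484), was at 44.8, 45.1 and 48.5 CPM in None, 40.8 and 37.7 in Kira8, 17.5 and 16.0 in Stattic, and 19.5, 18.6 and 20.6 in Kira8+Stattic. The libraries given Stattic, alone or with Kira8, lay far below both other groups. The change was -1.46 ± 0.15 (adjusted p = 2.33e-05) under Stattic and -1.24 ± 0.13 (adjusted p = 1.83e-05) under Kira8+Stattic, the largest decrease of the 43 genes in both, and -0.23 ± 0.14 (adjusted p = 0.297) under Kira8.

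Among the genes of this role that rose, Cdc25b, a phosphatase that activates CDK1, was at 77.8, 60.4 and 85.4 CPM in None, 113 and 86.3 in Kira8, 130 and 105 in Stattic, and 128, 111 and 101 in Kira8+Stattic. It was higher under Stattic (0.66 ± 0.19, adjusted p = 0.0172) and Kira8+Stattic (0.60 ± 0.17, adjusted p = 0.0148). Both calls ended with scaling by library size alone (adjusted p = 0.0795 and 0.0701) and without None replicate 2 (adjusted p = 0.0515 and 0.0545), the first also without Stattic replicate 1 (0.146) and the second also without Kira8+Stattic replicate 1 (0.0745). Cks2, a small protein that binds CDK1, was at 50.3, 37.2 and 38.1 CPM in None, 37.7 and 36.1 in Kira8, 63.7 and 60.6 in Stattic, and 56.2, 52.7 and 69.6 in Kira8+Stattic. It was higher under Stattic (0.57 ± 0.18, adjusted p = 0.0231) and Kira8+Stattic (0.51 ± 0.16, adjusted p = 0.0232), and both calls also ended with scaling by library size alone (adjusted p = 0.104 and 0.12). They ended as well without None replicate 2 or 3, without Stattic replicate 1 or 3 for the first, and without Kira8+Stattic replicate 1 or 3 for the second (adjusted p from 0.0515 to 0.109).

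Foxm1, the transcription factor of the late cell cycle genes, was at 54.6, 67.7 and 77.2 CPM in None, 92.9 and 81.3 in Kira8, 70.1 and 51.4 in Stattic, and 74.3, 64.5 and 52.2 in Kira8+Stattic. Both Kira8 libraries lay above every None library, yet the change of 0.39 ± 0.20 did not pass (adjusted p = 0.215). The others were -0.13 ± 0.21 and -0.06 ± 0.18. Cdc25c, another CDK1 phosphatase, did not pass either, with changes of -0.12, -0.03 and 0.43.

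Of the 6 mitotic kinases, 2 were lower under Kira8 and 3 each under Stattic and Kira8+Stattic. Plk1 (chr7:122159439-122169873) was at 68.5, 57.7 and 64.3 CPM in None, 36.1 and 29.2 in Kira8, 31.4 and 20.7 in Stattic, and 37.0, 27.3 and 22.2 in Kira8+Stattic. No None library fell below 57.7 CPM, above every treated library. The changes were -0.96 ± 0.24 (adjusted p = 0.0146), -1.29 ± 0.24 (adjusted p = 0.00134) and -1.14 ± 0.21 (adjusted p = 0.001) under Kira8, Stattic and Kira8+Stattic. Without Kira8 replicate 1 or 3 the adjusted p of the Kira8 change was 0.0575 or 0.16.

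Aurkb, the kinase of the chromosomal passenger complex, was at 84.1, 66.8 and 74.1 CPM in None, 50.6 and 48.2 in Kira8, 42.5 and 33.9 in Stattic, and 56.3, 36.6 and 36.2 in Kira8+Stattic. All treated libraries lay below all None libraries. It passed under Stattic (-0.97 ± 0.21, adjusted p = 0.00362) and Kira8+Stattic (-0.80 ± 0.19, adjusted p = 0.00456), and not under Kira8 (-0.60 ± 0.21, adjusted p = 0.067), where DESeq2 (adjusted p = 0.0263) and limma voom (0.049) did call it. Aurka, the kinase of the spindle poles, differed in pattern: it was at 41.6, 40.3 and 31.8 CPM in None, 23.0 and 21.2 in Kira8, 45.1 and 43.7 in Stattic, and 47.1, 40.6 and 50.7 in Kira8+Stattic. The Kira8 libraries were the lowest of all, with a change of -0.78 ± 0.17 (adjusted p = 0.0076; 0.0575 without Kira8 replicate 1 and 0.103 without replicate 3), and the changes under Stattic (0.23) and Kira8+Stattic (0.28) did not pass. Ttk, the checkpoint kinase MPS1, fell by 0.95 and 0.72 (log2) under Stattic and Kira8+Stattic. Nek2 and Bub1 passed in none of the 3 comparisons, with changes between -0.30 and 0.19.

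**Figure D4:**
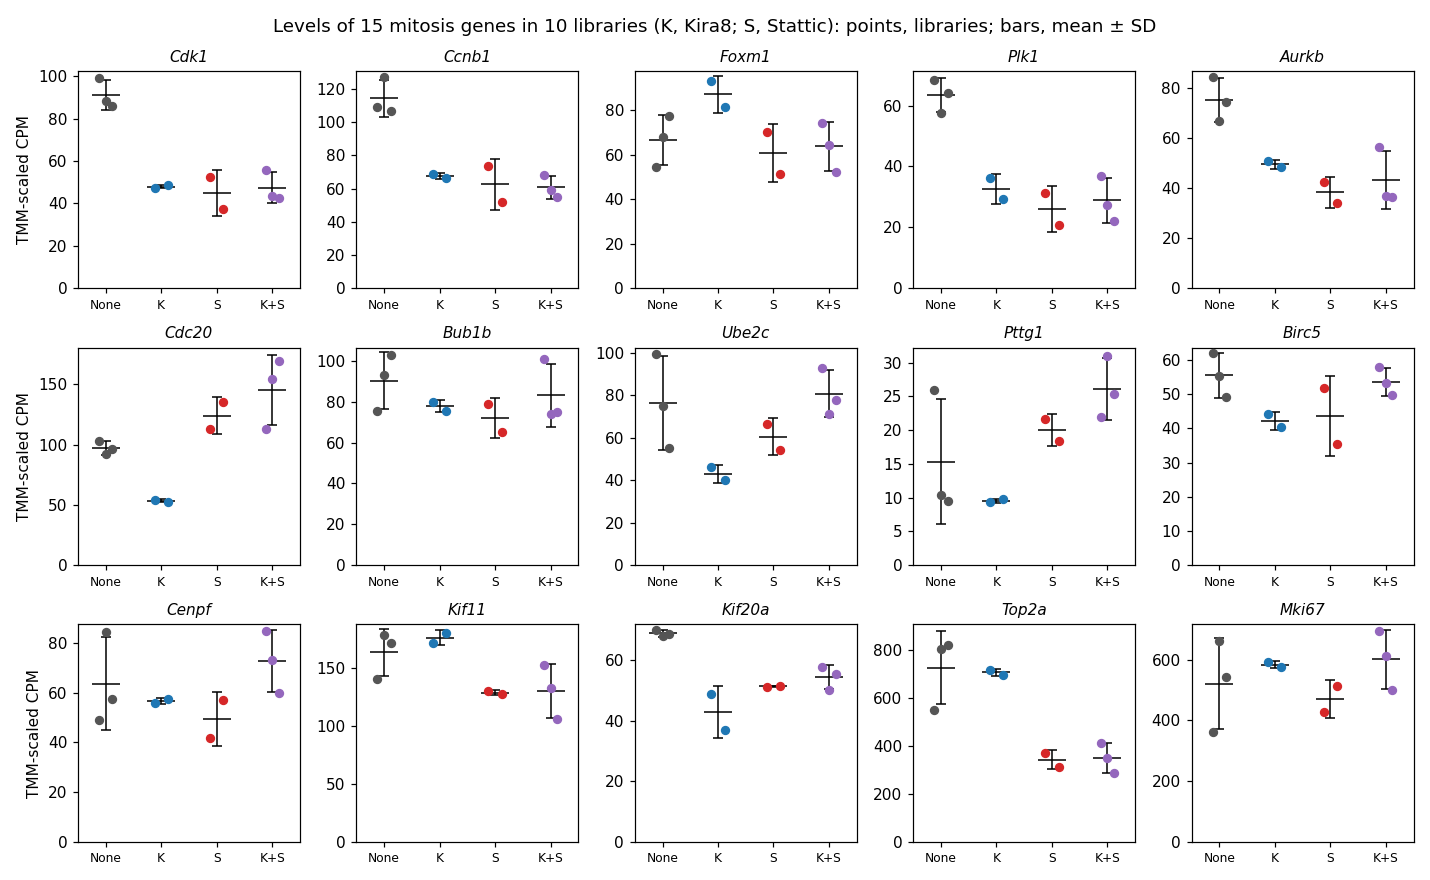
Levels of 15 mitosis genes in CPM scaled by TMM, in None, Kira8 (K), Stattic (S) and Kira8+Stattic (K+S); points are libraries and bars the mean ± SD (n = 3, 2, 2 and 3). Cdk1, Ccnb1, Plk1 and Aurkb are lower in all treated libraries, Top2a only in the 5 libraries with Stattic, and Cdc20 is lowest in Kira8 and highest in Kira8+Stattic.

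Of the 6 genes of the checkpoint and the anaphase-promoting complex, 2 were lower under Kira8, 1 under Stattic, and 1 lower and 1 higher under Kira8+Stattic. Cdc20, the activator of the complex that the checkpoint holds back (chr4:118432901-118437352), was at 103, 92.0 and 96.4 CPM in None, 54.2 and 52.4 in Kira8, 113 and 135 in Stattic, and 113, 154 and 169 in Kira8+Stattic. The 4 groups fell into the order Kira8, None, then the 2 groups with Stattic, whose ranges overlapped. The change was -0.87 ± 0.18 (adjusted p = 0.00633) under Kira8, 0.35 ± 0.18 (adjusted p = 0.135) under Stattic and 0.58 ± 0.16 (adjusted p = 0.0118) under Kira8+Stattic. Dropping Kira8 replicate 1 or 3 ended the Kira8 call (adjusted p = 0.0603 or 0.0775), and dropping Kira8+Stattic replicate 3 ended the last (0.061).

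Ube2c, the ubiquitin-conjugating enzyme of the complex (chr2:164769898-164778822), was at 99.4, 74.8 and 55.2 CPM in None, 46.0 and 39.9 in Kira8, 66.5 and 54.3 in Stattic, and 92.8, 71.3 and 77.9 in Kira8+Stattic. Both Kira8 libraries were below all others. The Kira8 change was -0.83 ± 0.23 (adjusted p = 0.0246), and it no longer passed without None replicate 1 (adjusted p = 0.0542), Kira8 replicate 1 (0.0945) or Kira8 replicate 3 (0.201). The changes under Stattic (-0.34) and Kira8+Stattic (0.08) did not pass, and the last turned to -0.08 with scaling by library size alone.

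Pttg1, securin, which holds back the protease that parts sister chromatids, was at 26, 10.4 and 9.53 CPM in None, 9.33 and 9.73 in Kira8, 21.7 and 18.4 in Stattic, and 21.9, 31.0 and 25.3 in Kira8+Stattic. None replicate 1 stood with the libraries given Stattic, and the other None libraries with Kira8. No change against None passed (-0.68, 0.39 and 0.77). Without None replicate 1 the changes under Stattic (1.01, adjusted p = 0.00233) and Kira8+Stattic (1.39, adjusted p = 0.000177) did.

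Bub1b, the checkpoint protein BUBR1, was at 75.3, 93.1 and 103 CPM in None, 79.9 and 75.7 in Kira8, 79.1 and 65.1 in Stattic, and 101, 73.9 and 74.8 in Kira8+Stattic. The groups overlapped, and its changes of -0.22, -0.32 and -0.12 did not pass. Bub3, its partner at the kinetochore, was lower under Stattic (-0.61 ± 0.14, adjusted p = 0.00451) and Kira8+Stattic (-0.37 ± 0.12, adjusted p = 0.0283). The first call ended without Stattic replicate 3 (0.0523), and the second with no filter and without None replicate 2, Kira8 replicate 1 or 3, or Kira8+Stattic replicate 2 or 3 (0.0586 to 0.0934). Mad2l1, which encodes the MAD2 inhibitor of CDC20, had changes of -0.21, -0.05 and -0.15, none of which passed.

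The 8 genes of the chromosomal passenger complex, kinetochore and centromere moved in both directions. Kira8 raised 2 of them, Stattic raised 2 and lowered 2, and Kira8+Stattic raised 3 and lowered 1. Ndc80, which gives its name to the kinetochore complex that grips microtubules (chr17:71496100-71526857), was at 36.5, 38.4 and 36.9 CPM in None, 59.5 and 56.5 in Kira8, 76.7 and 72.5 in Stattic, and 76.5, 80.1 and 67.8 in Kira8+Stattic. It had the largest increase of the 43 genes in all 3 comparisons, and no treated library came near the None range. The changes were 0.64 ± 0.14 (adjusted p = 0.00667), 1.00 ± 0.14 (adjusted p = 0.000145) and 1.01 ± 0.12 (adjusted p = 5.81e-05). The first was lost without Kira8 replicate 1 (adjusted p = 0.0817) or 3 (0.0564).

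Nuf2, the partner of Ndc80 in that complex, went the other way, with -0.28 (not passed), -0.52 ± 0.15 (adjusted p = 0.0156; 0.131 without Stattic replicate 3) and -0.71 ± 0.13 (adjusted p = 0.00102). Cenpa, the histone H3 variant that marks centromeres, was at 95.2, 98.4 and 95.1 CPM in None, 153 and 126 in Kira8, 132 and 129 in Stattic, and 150, 157 and 143 in Kira8+Stattic. All treated libraries lay above all None libraries, with changes of 0.53 ± 0.14 (adjusted p = 0.0189), 0.44 ± 0.14 (adjusted p = 0.0264) and 0.64 ± 0.13 (adjusted p = 0.00163). Dropping Kira8 replicate 1 or 3 ended the Kira8 call (adjusted p = 0.259 or 0.0538). The Stattic call ended with scaling by library size alone (0.152), without None replicate 3 or Kira8+Stattic replicate 1 (0.0571 each), and without Stattic replicate 1 (0.11) or 3 (0.0932).

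Birc5, survivin of the passenger complex, was at 62.2, 55.5 and 49.1 CPM in None, 44.1 and 40.3 in Kira8, 52.0 and 35.5 in Stattic, and 57.9, 53.2 and 49.7 in Kira8+Stattic. Its changes of -0.40 (adjusted p = 0.161), -0.34 (0.161) and -0.05 (0.829) did not pass, though both Kira8 libraries lay below None. Incenp, the scaffold of the same complex, was lower under Stattic (-0.55 ± 0.20, adjusted p = 0.0469), and Cdca8, borealin, was higher under Kira8+Stattic (0.43 ± 0.13, adjusted p = 0.0202). The Incenp call ended with the replicate block (0.0507), with no filter (0.056) and without None replicate 2 or 3, Kira8 replicate 1 or 3, Stattic replicate 3 or Kira8+Stattic replicate 2 (0.0692 to 0.312). The Cdca8 call ended with scaling by library size alone (0.134) and without None replicate 2 or 3 or Kira8+Stattic replicate 1 or 2 (0.0511 to 0.0791). Cenpf, a large kinetochore protein, was at 48.8, 84.5 and 57.3 CPM in None, 55.7 and 57.4 in Kira8, 41.7 and 56.9 in Stattic, and 84.8, 73.1 and 59.8 in Kira8+Stattic. Its groups overlapped and its changes (-0.17, -0.37 and 0.19) did not pass, nor did those of Cenpe, a kinetochore kinesin (-0.27, -0.16 and 0.20).

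Of the 6 spindle kinesins and microtubule proteins, 1 was lower under Kira8 and 3 each under Stattic and Kira8+Stattic. Kif2c, a kinesin that takes microtubule ends apart at centromeres (chr4:117159639-117182639), was at 33.6, 40.7 and 39.5 CPM in None, 33.0 and 33.3 in Kira8, 18.1 and 17.1 in Stattic, and 26, 18.8 and 17.5 in Kira8+Stattic. It was lower where Stattic was given, by -1.11 ± 0.20 (adjusted p = 0.000862) alone and -0.87 ± 0.17 (adjusted p = 0.00145) with Kira8, against -0.19 ± 0.19 (adjusted p = 0.534) under Kira8. Kif11, the kinesin that pushes spindle poles apart, was at 140, 178 and 171 CPM in None, 171 and 180 in Kira8, 130 and 127 in Stattic, and 152, 132 and 106 in Kira8+Stattic. Its changes of 0.11, -0.34 (adjusted p = 0.146) and -0.32 (adjusted p = 0.12) did not pass.

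Hmmr, a spindle protein also known as the hyaluronan receptor RHAMM, was lower in all 3 comparisons (-0.55 ± 0.17, -0.50 ± 0.17 and -0.44 ± 0.15, adjusted p = 0.0428, 0.0372 and 0.0371). The Kira8 and Kira8+Stattic calls ended with no filter, and the Kira8 call with scaling by library size alone. Without any one of None replicate 2, Kira8 replicate 1, Kira8 replicate 3 and Kira8+Stattic replicate 2 all 3 calls ended (adjusted p from 0.0537 to 0.338). The Kira8 call also ended without None replicate 1 or 3, the Stattic call without Stattic replicate 1 or 3, and the third without Kira8+Stattic replicate 3 (0.0511 to 0.22). Tpx2, which activates Aurora A on the spindle, was lower under Stattic (-0.48, adjusted p = 0.0381) and Kira8+Stattic (-0.39, adjusted p = 0.0489), calls that leaving out 6 and 7 of the 10 libraries in turn ended (0.0583 to 0.284). Nusap1, which bundles spindle microtubules, was above None in all 7 treated libraries, but its changes of 0.37, 0.44 and 0.38 had adjusted p of 0.137, 0.0501 and 0.0595. Kif4, a chromosome-bound kinesin, had changes from -0.21 to -0.03.

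Among the 6 midzone and cytokinesis genes, Kif20a, the kinesin MKLP2, was at 69.9, 67.8 and 68.4 CPM in None, 48.8 and 36.8 in Kira8, 51.1 and 51.4 in Stattic, and 57.6, 50 and 55.2 in Kira8+Stattic. All treated libraries were below None. It was lower under Kira8 (-0.68 ± 0.16, adjusted p = 0.00981; 0.183 without Kira8 replicate 3) and barely so under Stattic (-0.42 ± 0.16, adjusted p = 0.0488). The Stattic call was lost with RLE scaling (adjusted p = 0.0576) and on leaving out any one of None replicates 1 to 3, Kira8 replicates 1 and 3, Stattic replicates 1 and 3 or Kira8+Stattic replicates 2 and 3 (0.0537 to 0.162). Anln, anillin of the contractile ring, was lower under Stattic (-0.65 ± 0.20, adjusted p = 0.0198; 0.057 without None replicate 2 and 0.16 without Stattic replicate 1) at 16.2 and 21.4 CPM, against 25.4, 33.2 and 30.2 in None. Kif23, Prc1, Ect2 and Racgap1, which build the midzone and place the furrow, passed in none of the 3 comparisons, with changes from -0.46 to 0.05.

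Top2a (chr11:98992943-99024189) was at 550, 802 and 820 CPM in None, 716 and 694 in Kira8, 370 and 313 in Stattic, and 412, 350 and 287 in Kira8+Stattic. The 5 libraries with Stattic lay below all 5 without it. The change was -0.04 ± 0.21 (adjusted p = 0.938) under Kira8, -1.08 ± 0.22 (adjusted p = 0.0019) under Stattic and -1.05 ± 0.19 (adjusted p = 0.00082) under Kira8+Stattic. Mki67, the source of the Ki-67 proliferation marker, was at 362, 661 and 542 CPM in None, 592 and 576 in Kira8, 427 and 514 in Stattic, and 695, 611 and 500 in Kira8+Stattic. Its libraries spread as widely within None as between groups, and its changes of 0.16 ± 0.23, -0.15 ± 0.23 and 0.21 ± 0.21 did not pass (adjusted p = 0.698, 0.649 and 0.465).

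Set directly against Kira8, the combination raised 7 of the 43 genes (16.3%) and lowered 4 (9.3%), while 14.7% of all genes were called higher and 16.0% lower. In both directions together 25.6% of the 43 were called, fewer than the 30.7% of all genes. Those raised were Cdc20 (1.45 ± 0.19, adjusted p = 0.000208), Pttg1 (1.45 ± 0.38, adjusted p = 0.0126), Aurka (1.06 ± 0.17), Ccnb2 (0.93 ± 0.25), Ube2c (0.91 ± 0.23), Cdca8 (0.78 ± 0.15) and Cks2 (0.69 ± 0.18). The lowered genes were Top2a (-1.01 ± 0.21, adjusted p = 0.00315), Ccnf (-1.0 ± 0.14, adjusted p = 0.000329), Kif2c (-0.68 ± 0.19) and Nuf2 (-0.44 ± 0.15). Without Kira8 replicate 1 or 3 there were 6 or 4 calls, and Cdc20, Aurka, Top2a and Ccnf were called whichever library was left out. Stattic against Kira8 gave 5 higher (Cdc20, Aurka, Ccnb2, Cks2 and Cdca8) and 3 lower (Ccnf, Top2a and Kif2c). These were 11.6% and 6.98% of the 43, each below the 13.7% and 15.1% of all genes. Cdc20 was 2.33-fold higher in Stattic than in Kira8 (1.22 ± 0.20, log2), and Ccnf 2.34-fold lower (-1.23 ± 0.16). Leaving out Kira8 replicate 1, Kira8 replicate 3 or Stattic replicate 1 left 5 calls.

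Between Kira8+Stattic and Stattic no mitosis gene was called by edgeR, DESeq2 or limma voom, and over all genes 0.00942% were called higher and 0.00471% lower by edgeR. Of the mitosis genes 2, Nek2 (0.43) and Cenpf (0.56), had an unadjusted p under 0.05 by edgeR, beside 874 of all 21239 genes. The differences ran from -0.19 in Nuf2 to 0.56 in Cenpf. A missed threshold does not show equal levels: the 95% interval was -0.32 to 0.47 for Cdk1, -0.16 to 0.62 for Cdc20, -0.08 to 0.91 for Ube2c and -0.41 to 1.17 for Pttg1 (log2).

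The change that goes with Kira8 was therefore compared with and without Stattic, as the difference of the 2 changes (the interaction). It passed for 3 genes, all positive, or 6.98% of the 43. Of all genes 8.52% were called, 4.55% positive and 3.97% negative, so mitosis genes were not called more often. For Cdk1 the difference was 1.01 ± 0.26 (adjusted p = 0.0346), from -0.93 without Stattic to 0.08 with it. For Cdc20 it was 1.09 ± 0.26 (adjusted p = 0.0232), from -0.87 to 0.23, and for Ube2c 1.25 ± 0.32 (adjusted p = 0.0344), from -0.83 to 0.42. Cdk1 stood at like levels in all 3 treated groups, whereas Cdc20 and Ube2c were low in Kira8 and near or above None in Kira8+Stattic. The median difference over the 43 genes was 0.52, against 0.01 over all genes. By edgeR 19 of the 43 had an unadjusted p under 0.05, beside 5144 of all 21239 genes. The count of 3 rests on few libraries: it was 0 without Kira8 replicate 1, Kira8 replicate 3, Stattic replicate 3 or Kira8+Stattic replicate 2, and 1 without Kira8+Stattic replicate 1 or 3. DESeq2 called 10, of which 9 were positive and 1 negative, beside 1697 positive and 1422 negative of 21239 genes.

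**Figure D5:**
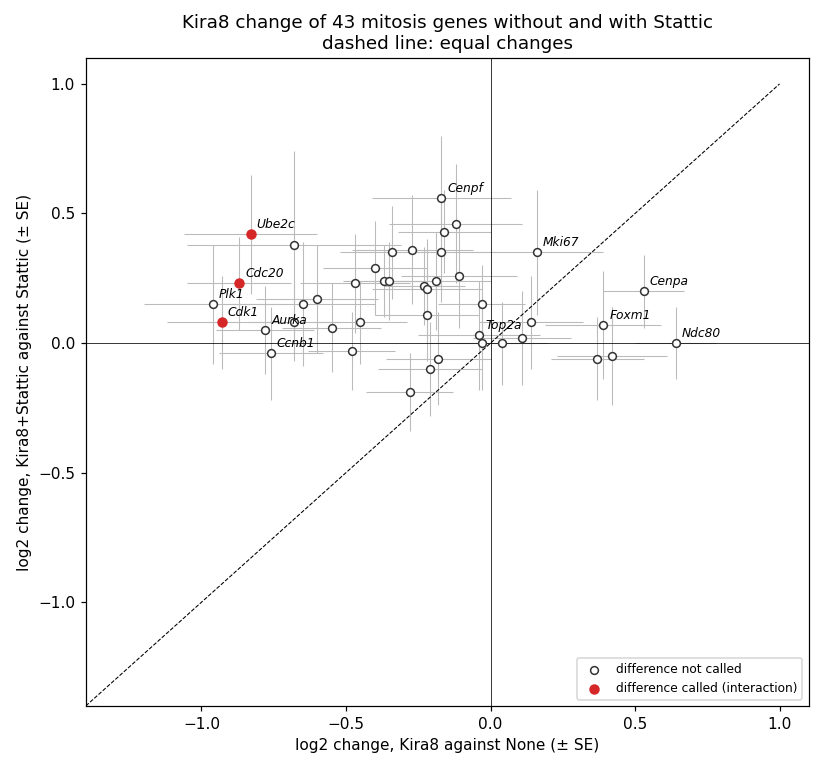
Log2 change with Kira8 in the absence of Stattic (x axis, Kira8 against None) and in its presence (y axis, Kira8+Stattic against Stattic) for the 43 mitosis genes; bars are the SE and the dashed line marks equal changes. Most points lie above the line, and the 3 filled red points, Cdk1, Cdc20 and Ube2c, are those whose 2 changes differed by the test.

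With Kira8 replicate 2 and Stattic replicate 2 included, edgeR called no mitosis gene against None under any treatment. The lowest adjusted p was 0.397 for Kira8, 0.198 for Stattic and 0.465 for Kira8+Stattic, and 0, 2 and 0 genes had an unadjusted p under 0.05. Few genes of any kind passed: 0.0% of 20993 under Kira8, 0.31% under Stattic and 0.272% under Kira8+Stattic. The common dispersion was 1.01 with 12 libraries and 0.143 with 10. DESeq2 called 0, 2 and 1 of the mitosis genes. Over all genes it called 749 higher and 373 lower under Kira8, 1757 and 1011 under Stattic, and 1182 and 773 under Kira8+Stattic. Limma voom with library quality weights, which gives discordant libraries less weight, called 6 (1 higher, 5 lower), 10 (1 and 9) and 17 (5 and 12), beside 22.3%, 37.1% and 47.4% of all genes. In that fit Cdk1 was at -0.91, -1.12 and -0.97, Ccnf at -1.49 under Stattic, and Top2a at -1.20 under Stattic. Other calls were lost there. Ccnb1 was at -0.81 and -0.98 under Kira8 and Stattic (adjusted p = 0.0893 and 0.0676), and Aurkb at -1.05 under Stattic (0.0703). Ndc80 was at 0.62 and 0.89 under Kira8 and Stattic (0.161 and 0.0658). These 3 genes stayed called under Kira8+Stattic, where Cdc20 did not (0.161). The increase of Ndc80 under Stattic, 1.00 with 10 libraries, was 0.40 with 12 in edgeR, where Stattic replicate 2 held no count of it.

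Exons of 15 of the 43 genes overlap another annotated gene, 12 of them on the opposite strand, such as Cdc20 with Elovl1, Ube2c with Tnnc2, Kif20a with Cdc23 and Ccna2 with Exosc9. The sources used here do not say whether counting used strand or how multiply mapping reads were treated, and the counts of these genes, and of any with near-identical copies, are uncertain.

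Other genes of the same programme were read from lists that do not hold the 43. Of 82 other G2 and M genes tested, 9 were lower (11.0%, near the 9.59% of all genes) and 3 higher (3.66%) under Kira8, 26 (31.7%, beside 18.9% of all genes) and 5 (6.1%) under Stattic, and 25 (30.5%, beside 20.0%) and 7 (8.54%) under Kira8+Stattic. Trip13, which recycles the MAD2 checkpoint protein, changed by -1.30 ± 0.19, -1.28 ± 0.19 and -1.24 ± 0.17 (adjusted p = 0.000743, 0.000269 and 0.0001). Cenpl, with the smallest adjusted p of this list under Kira8, rose there by 1.18 ± 0.15 (adjusted p = 0.000333). Wee1, the kinase that restrains CDK1, changed by -1.04 ± 0.18 under Kira8, and Cdc16 and Cdc23, subunits of the anaphase-promoting complex, by -1.46 ± 0.21 and -1.47 ± 0.19 under Stattic. Of 21 MuvB, B-Myb and E2F regulators, 3 were lower and 3 higher under Kira8 (14.3% each, beside 9.59% and 9.7% of all genes), 8 (38.1%) and 3 (14.3%) under Stattic, and 9 (42.9%) and 3 under Kira8+Stattic. Tfdp1, the dimer partner of E2F proteins, changed by -1.08 ± 0.19, -1.96 ± 0.20 and -1.76 ± 0.17, and E2f4 by -0.69 ± 0.17, -1.4 ± 0.17 and -1.12 ± 0.15. Nfya, of NF-Y, changed by -1.48 ± 0.18 under Stattic, and Lin54, the MuvB subunit that binds the CHR, by 1.43 ± 0.19 under Kira8+Stattic. Of 32 S phase genes, 14, 13 and 13 were lower (43.8%, 40.6% and 40.6%, beside 9.59%, 18.9% and 20.0% of all genes) and 0, 2 and 5 higher, among them Mcm2 of the replicative helicase at -1.15 ± 0.18 under Kira8 and Rrm2 of ribonucleotide reductase at -1.50 ± 0.15 under Stattic.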

How the data were processed

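RNA sequencing of total RNA gave 12 libraries. The values are raw read counts per gene, as the authors deposited them; per the submitters' processing notes the genome was mm10, and the sources used here name no aligner, counter, annotation or strand setting. Of 55401 identifiers 55141 had a symbol. Groups and replicate numbers come from the sample titles. Total counts were 9.28 to 85.9 M (megacounts), and 3 counts corresponded to 0.0349 to 0.0581 CPM in the 10 libraries tested; depths and limits from counts cover counting error only. No 2 replicates agreed within sampling noise (lowest chi-square per gene 30).

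The mitosis genes, the other lists, the tests and the choice of libraries were set with earlier results of these data known. Genes were filtered with filterByExpr, scaled by TMM and tested with edgeR 4.0.16 (R 4.3.3; glmQLFit, glmQLFTest) in 1 fit of 10 libraries, without Kira8 replicate 2 and Stattic replicate 2, in 7 comparisons, with Benjamini-Hochberg adjustment over 21239 genes and calls under 0.05. The SE is the log2 change over the root of F, and 95% intervals are the change ± the t quantile at edgeR's total degrees of freedom times the SE. The scripts were tested on simulated data. Values in every library are given for 15 preset genes and the 3 called higher and 3 called lower with the largest change in each comparison against None; Aurka and Anln were added after their values were seen, as were other genes described by role. Alternatives were all 12 libraries, DESeq2 1.42.0, limma 3.58.1 (voom, with and without quality weights), RLE factors, library size alone, no filter, over 1 CPM in 3 libraries, a test against 1.5-fold, a replicate block, fits of only the groups compared, and dropping each library in turn. Positions are GENCODE M21, exon overlaps too; promoters are from RefSeq.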

Additional observations from a re-analysis of the deposited data

Results flagged for a closer look

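For 3 of the mitosis genes the change with Kira8 differed between cells without and with Stattic, by edgeR's quasi-likelihood test of the difference itself. These 3 are 6.98% of the 43, while over all genes tested 8.52% were called, 4.55% positive and 3.97% negative. In log2 units the difference was 1.01 for Cdk1, 1.09 for Cdc20 and 1.25 for Ube2c. All 3 are positive, and each call ended without Kira8 replicate 1 or 3, Stattic replicate 3 or Kira8+Stattic replicate 2 or 3.

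In both libraries that stood apart, 2 genes were above every None library, on a scale set over all 12 libraries. Cdc25c was at 196 CPM (965 counts) in Kira8 replicate 2 and 229 CPM (2000 counts) in Stattic replicate 2. Its exons overlap Gm3550 on the opposite strand, and the strand setting of the counts is not given, so these reads may not all be of Cdc25c. Anln was at 39.1 CPM (193 counts) and 33.0 CPM (288 counts). Most of the other mitosis genes were lower there than in None, and no group comparison of the 10 libraries uses these values.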

How the results depend on the processing

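Leaving out each of the 10 libraries in turn gave 0 to 13 calls for Kira8 against None, 12 to 21 for Stattic, 12 to 22 for Kira8+Stattic, 4 to 12 for Kira8+Stattic against Kira8, 0 to 0 for Kira8+Stattic against Stattic, 5 to 9 for Stattic against Kira8 and 0 to 5 for the interaction. With all 12 libraries edgeR called 0 genes in each of the 7 comparisons, DESeq2 0 to 2, and limma voom with quality weights 6 for Kira8, 10 for Stattic and 0 for the interaction. The test against 1.5-fold called 0 for Kira8, 7 for Stattic, 6 for Kira8+Stattic, 3 for Kira8+Stattic against Kira8, 3 for Stattic against Kira8 and 0 for the interaction. For the interaction, DESeq2 called 10, RLE factors 5 and the 1 CPM filter 7. Over all genes it was called positive and negative in 1697 and 1422 of 21239 by DESeq2, 1008 and 845 with RLE factors, and 1213 and 1124 of 14268 with the 1 CPM filter. The fit of only the groups compared has no separate value there. Causes were not tested, though fewer libraries leave fewer degrees of freedom.

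The labels do not say what the replicate number marks. In their deviations from the group means, same-numbered samples correlated at -0.0506 to 0.262, with 9 of 13 pairs over 0.1. Samples of other numbers correlated at -0.262 to 0.206, with 1 of 24 over 0.1. As a hint from the data, 9 of 10 libraries, all but None replicate 2, correlated best with one of their own number. The pairs are not separate evidence, since deviations within a group sum to 0. Replicates 1 and 3 of Kira8, and of Stattic, mirror each other. Kira8 replicate 1 correlated at 0.171 with Stattic replicate 1 and -0.171 with Stattic replicate 3. Since not every same-numbered pair was over 0.1, the numbers were not taken as a pairing. The replicate block gave 13, 18 and 21 calls against None, 10 for Kira8+Stattic against Kira8, 0 against Stattic, 8 for Stattic against Kira8 and 5 for the interaction. It dropped Incenp under Stattic and Nuf2 for Kira8+Stattic against Kira8, and it added Aurkb and Ccnb2 under Kira8, Nusap1 and Pttg1 under Kira8+Stattic, and Aurkb and Plk1 for the interaction.

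Of the 43 genes, edgeR with 12 libraries turned the direction of 8 under Kira8, 8 under Stattic and 0 under Kira8+Stattic, DESeq2 with 12 that of 8, 8 and 1, and leaving out 1 library that of at most 5, 5 and 3. Over all comparisons and alternatives run, 1 of the genes called with 10 libraries turned, Anln under Stattic (from -0.65 to 0.10 in DESeq2 with 12). Aurka, added after its values were seen, turned under Stattic (-0.37 in edgeR with 12). Among the genes named by rule, those that turned with 12 libraries were Cdc20 under Stattic (-0.25 in edgeR, -0.18 in DESeq2) and, under Kira8, Cdc25b (-0.17, -0.19), Kif11 (-0.34, -0.27), Mki67 (-0.24, -0.15), Foxm1 (-0.02 in edgeR), Birc5 (0.07 in DESeq2) and Pttg1 (0.26 in DESeq2). Scaling by library size alone turned Ube2c under Kira8+Stattic (-0.08). Leaving out 1 library turned these, given as the lowest and highest of the 10 values: under Kira8, Cenpf (-0.33 to 0.09), Mki67 (-0.04 to 0.37) and Top2a (-0.20 to 0.06); under Stattic, Foxm1 (-0.38 to 0.07) and Mki67 (-0.35 to 0.06); under Kira8+Stattic, Birc5 (-0.15 to 0.04), Foxm1 (-0.23 to 0.06) and Ube2c (-0.11 to 0.31).

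In the 10 libraries the lowest count of any of the 43 genes was 431, far above the limit of 3 counts.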
